A study of Homo sapiens with 6 samples.

Results

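A set of 10 genes of the contractile actin cytoskeleton and of its transcription factor SRF were followed in the triple-negative breast cancer cell line Hs578T after CCN3 knockdown. The members were the rows of the deposited gene table with the symbols ACTA2, ACTG2, TAGLN, CNN1, CNN2, MYL9, TPM1, TPM2, CALD1 and SRF, 10 of 46427 genes, and all 10 symbols were found. RNA-seq libraries came from 3 samples of Hs578T cells with control shRNA (shCTRL, pSUPER-CTRL) and from 3 samples of Hs578T cells with CCN3 shRNA #2 (shCCN3, pSUPER-CCN3 sh). Both lines were made by retroviral transduction and puromycin selection and were grown in DMEM with fetal bovine serum. Because the comparison holds a single control line and a single knockdown line with one CCN3 shRNA, loss of CCN3 and other differences between the 2 lines cannot be told apart. The labels describe the 3 samples of a group as independent biological replicates.

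Smooth muscle and myofibroblasts contract through actin filaments and myosin II. Tropomyosin, caldesmon, calponin and transgelin coat the filament, and the phosphorylated regulatory light chain switches the motor on. Many of these genes are switched on by SRF, a transcription factor that binds the CArG box, a site of CC, 6 bases of A or T, and GG. SRF works with coactivators of the myocardin family or with ternary complex factors (TCF) of the ELK family, which respond to ERK. Of the coactivators, MRTFA and MRTFB respond to the pool of free actin monomers, and MYOCD acts mainly in heart and smooth muscle. In cancer and wound cells, ACTA2 and TAGLN are commonly read as markers of a contractile, myofibroblast-like state.

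To show which of these genes carry the SRF site close to their start, the RefSeq promoter sequences (GRCh38.p14, 250 bases before to 50 bases after the gene start) were searched on both strands. The CArG box reads the same way on both strands, so that 1 scan covers them. Promoters were in the table for 8 of the 10 genes (TAGLN and MYL9 were not in it), and 3 of the 8, ACTG2, SRF and CNN2, held a CArG box. Of all 27305 promoters, 1.29% held one. The boxes are shown in capitals with 10 bases on either side, with positions counted from the gene start and each sequence read from the plus strand of its chromosome, which is also the strand of the gene.
ACTG2, chr2:73892888-73892917, box starting at position -110: gaaaaaaccaCCTTATATGGtaatattgct
ACTG2, chr2:73892925-73892954, box starting at position -73: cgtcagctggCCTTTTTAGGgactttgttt
CNN2, chr19:1026509-1026538, box starting at position -89: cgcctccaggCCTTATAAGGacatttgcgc
SRF, chr6:43171229-43171258, box starting at position -30: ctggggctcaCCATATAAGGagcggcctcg
SRF, chr6:43171249-43171278, box starting at position -10: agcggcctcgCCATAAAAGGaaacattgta
The other 5 promoters (ACTA2, CNN1, TPM1, TPM2 and CALD1) held none of these letters in this window, also when 1 of the 6 central bases was allowed to be G or C. The window of ACTA2 lies at the outermost start of the gene, and further start sites were not searched.

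The libraries held between 56159110 and 68393177 counts. Levels are given as CPM, counts scaled to library size with TMM factors, and 3 counts in a library, the limit that a count of 0 allows, correspond to 0.0435 to 0.0540 CPM (counting error only). The shRNA's target was lower in the knockdown line, with CCN3 at 100.9 ± 2.43 CPM in the control and 47.0 ± 0.469 CPM in the knockdown libraries (SD, n = 3 each; log2FC, the log2 fold change of shCCN3 over shCTRL, -1.10, SE 0.055, adjusted p = 1.34e-06). Unless another test is named, adjusted p-values are from the quasi-likelihood test of edgeR with Benjamini-Hochberg adjustment over all genes tested. They set the difference between the groups against the spread between samples of the same line, not between separately made lines. Markers of the labelled cell type were mixed. VIM was at 7778 CPM and KRT18 at 163 CPM in shCTRL cells, while EPCAM, CDH1 and KRT5 were at or under 0.0711 CPM in the mean of either group.

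Contractile actin and SRF target genes were higher in shCCN3 than in shCTRL cells, with TPM2 as an exception. At an adjusted p under 0.05, 8 of the 10 genes rose, 0 fell, 1 (TPM2) did not pass and 1 (CNN1) was too low to be tested. Among the 17419 genes tested, 33.4% were called, 16.2% higher and 17.3% lower. At least 2-fold higher were 5 of the 10 genes, against 4.17% of the genes tested. For 8 of the 10 genes every shCCN3 library lay above every shCTRL library, against 22.7% of the genes tested. ACTG2 is included in each of these counts of risen genes, but it passed the filter on low counts only through the shCCN3 libraries, so it had to differ. Of the 8 genes with at least 10 counts in every library, 7 were called higher. In bulk RNA, more cells that express a gene and more RNA per cell cannot be told apart.

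**Figure D1:**
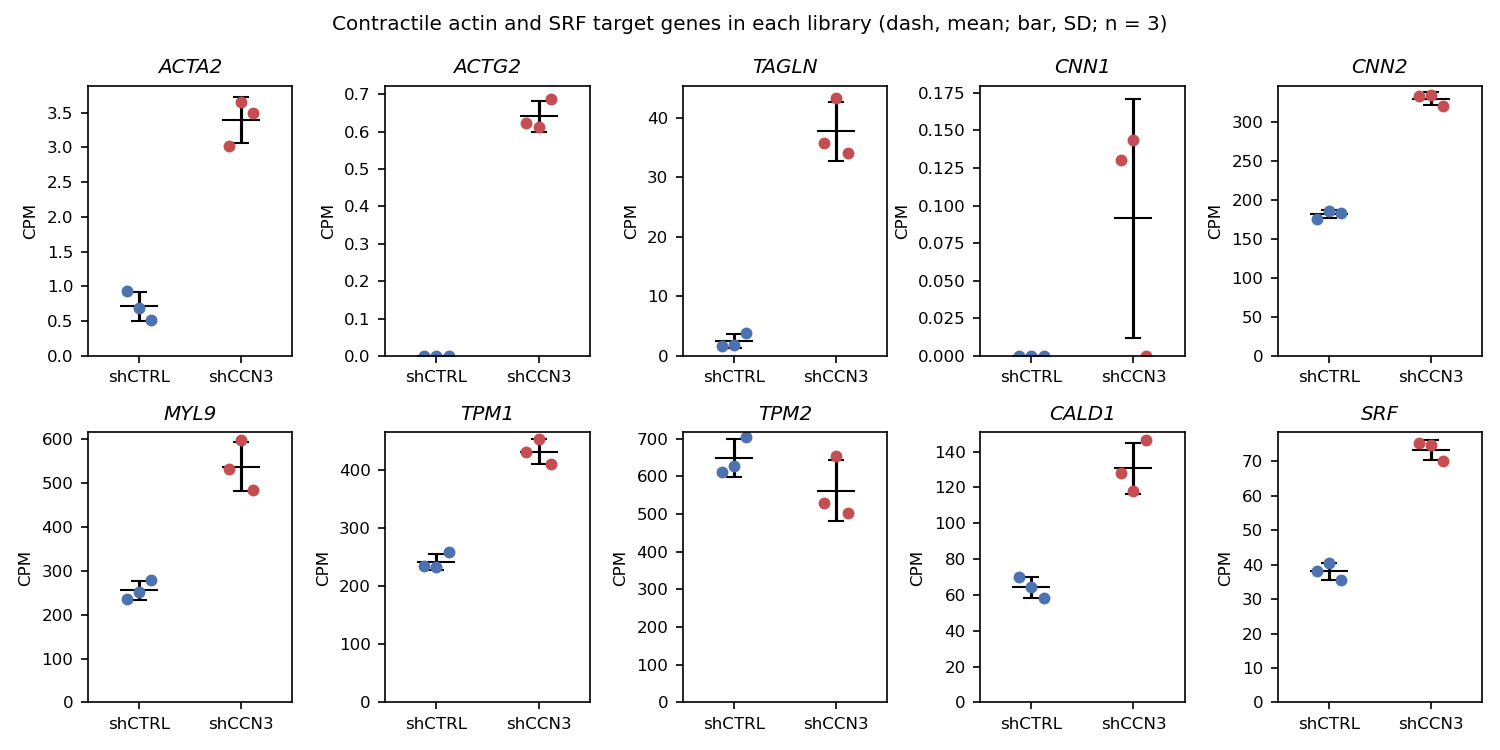
CPM of each of the 10 genes in the 3 shCTRL (blue) and 3 shCCN3 (red) libraries; each panel has its own axis from 0, the dash is the mean and the bar the SD. The groups do not overlap for 8 genes and overlap for TPM2 and CNN1.

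SRF encodes the transcription factor itself, and its own promoter carries 2 of the CArG boxes shown above. SRF mRNA was at 38.2, 40.5 and 35.4 CPM in the shCTRL libraries and at 75.4, 74.8 and 70.0 CPM in the shCCN3 libraries. All shCCN3 libraries were thus above all shCTRL libraries, and the log2FC was 0.95 (SE 0.070, adjusted p = 1.14e-05). SRF lies on chromosome 6 (GRCh38, 43171269 to 43181506), where the 891 tested genes had a median log2FC of 0.34. The 24 tested genes flanking SRF, the same number on each side, had a median of 0.35. The part of this regional shift in the rise of SRF was not tested, and the log2FC of SRF minus the median of its chromosome was 0.61.

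Of the filament-associated proteins, TAGLN changed most in fold terms among the genes detected in both groups. TAGLN encodes transgelin (SM22 alpha), an actin-binding protein and an early marker of smooth muscle (chr11:117199294-117207465). It was at 1.72, 1.88 and 3.77 CPM in the shCTRL libraries and at 35.8, 43.2 and 34.0 CPM in the shCCN3 libraries. The lowest shCCN3 library stood far above shCTRL replicate 3, the highest control. The rise was 15.3-fold, a log2FC of 3.94 (SE 0.256, adjusted p = 5.67e-06), and 107 of the 17419 genes tested had a higher log2FC. PCSK7, which overlaps TAGLN on the opposite strand of chromosome 11, had a log2FC of -0.38 (adjusted p = 0.0134).

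The 2 smooth muscle actins were low in both lines. ACTA2, which encodes smooth muscle alpha-actin (chr10:88935074-88991337), was at 0.931, 0.684 and 0.522 CPM in the shCTRL libraries and at 3.02, 3.65 and 3.50 CPM in the shCCN3 libraries. It rose 4.74-fold, with a log2FC of 2.24 (SE 0.220, adjusted p = 6.5e-05) and no overlap between the groups. ACTG2, which encodes the gamma-actin of enteric smooth muscle (chr2:73893008-73919865), had 0 counts in each shCTRL library and 43, 34 and 44 counts in the shCCN3 libraries. At 0.641 ± 0.0409 CPM (SD, n = 3) in shCCN3 cells, it was at least 14.1-fold higher than the level of 3 counts per shCTRL library, which is given as a description, with no p.

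The actins differ little in sequence, and how reads that match several of them were counted is not given in the sources used here, so the low values of ACTA2 and ACTG2 are uncertain. ACTB and ACTG1, the non-muscle actins, were at 6041 and 3861 CPM in shCTRL cells. ACTB had a log2FC of 0.11 (adjusted p = 0.142), and ACTG1 rose by a log2FC of 0.45 (adjusted p = 0.000182). ACTA1, the skeletal muscle actin, was at 0.275 CPM in control and 0.123 CPM in knockdown cells (log2FC -1.12, adjusted p = 0.138). Per kilobase of exon, ACTA2 made up 0.00797% ± 0.00235 of the transcripts of 6 actin genes in shCTRL cells and 0.0316% ± 0.00347 in shCCN3 cells (SD, n = 3 each). FAS, STAMBPL1 and ACTA2-AS1 overlap ACTA2 on the opposite strand, and FAS rose by a log2FC of 0.66 (adjusted p = 0.000348) while STAMBPL1 had one of -0.04 (adjusted p = 0.71).

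CNN1 and CNN2 encode calponins, of which CNN1 (chr19:11538851-11550323) belongs to differentiated smooth muscle and CNN2 (chr19:1026608-1039065) is found in many cell types. CNN1 had 0 counts in the shCTRL libraries and 9, 8 and 0 counts in the shCCN3 libraries, so that 1 shCCN3 library did not differ from the controls. It was not tested in the main comparison, and without a filter on low counts its adjusted p was 0.106. CNN2 was at 175, 186 and 184 CPM in the shCTRL libraries and at 334, 335 and 320 CPM in the shCCN3 libraries. Those groups were far apart, and CNN2 rose 1.81-fold (log2FC 0.86, SE 0.055, adjusted p = 5.32e-06). CNN3, the acidic calponin, had a log2FC of -0.08 (adjusted p = 0.456). CNN2 therefore made up 46.0% ± 2.16 of the calponin transcripts per kilobase of exon in shCTRL cells and 62.0% ± 2.43 in shCCN3 cells (SD, n = 3 each).

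MYL9, the regulatory light chain of smooth muscle and non-muscle myosin II (chr20:36541519-36551447), was the highest of the risen genes per kilobase of exon. It was at 236, 252 and 278 CPM in the shCTRL libraries and at 531, 597 and 485 CPM in the shCCN3 libraries. The groups did not overlap, and MYL9 rose 2.11-fold (log2FC 1.08, SE 0.090, adjusted p = 2.62e-05). CALD1, which encodes caldesmon, an inhibitor of the actomyosin ATPase, was at 69.8, 64.7 and 58.2 CPM in the shCTRL libraries and at 128, 118 and 146 CPM in the shCCN3 libraries. It rose 2.03-fold (log2FC 1.02, SE 0.095, adjusted p = 4.6e-05). CALD1 lies on chromosome 7 (134711499 to 134970729), where 84.9% of 821 tested genes had a log2FC below 0 and the median log2FC was -0.43. Its log2FC minus that median was 1.45. For MYL9 on chromosome 20 the median was -0.12, and for ACTA2, ACTG2, TAGLN, CNN2 and TPM1 the chromosome medians lay between 0.01 and 0.03.

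**Figure D2:**
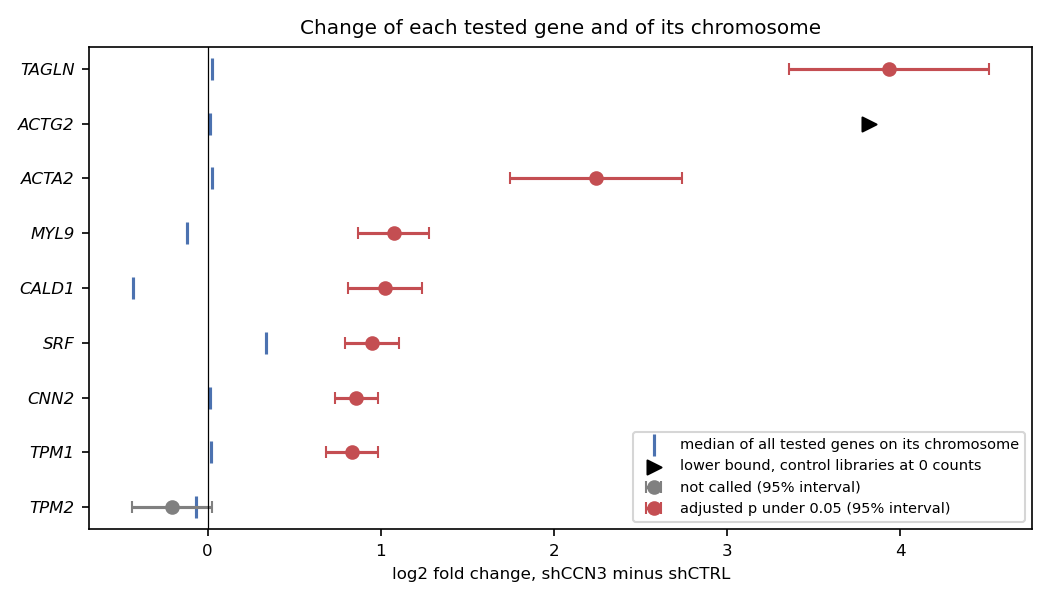
Log2 fold change (log2FC, shCCN3 minus shCTRL) of the 9 genes tested, with 95% intervals from the edgeR fit; blue ticks mark the median of all tested genes on the same chromosome, and the arrowhead marks ACTG2 at its lower bound of 14.1-fold. Red genes passed an adjusted p of 0.05, and CALD1 and SRF lie on the chromosomes with the medians furthest from 0.

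TPM1 (chr15:63042747-63071915) and TPM2 (chr9:35681993-35690056) encode tropomyosins, which form cables along the actin filament. TPM1 was at 234, 233 and 259 CPM in the shCTRL libraries and at 432, 454 and 411 CPM in the shCCN3 libraries. All shCCN3 libraries were higher, and TPM1 rose 1.79-fold (log2FC 0.84, SE 0.066, adjusted p = 1.8e-05). TPM2 was at 613, 627 and 705 CPM in the shCTRL libraries and at 529, 655 and 502 CPM in the shCCN3 libraries. Here shCCN3 replicate 2 lay inside the range of the controls. The log2FC of TPM2 was -0.21, with a 95% interval of -0.44 to 0.02 (adjusted p = 0.155), which leaves out a rise of the size seen for TPM1. Without shCCN3 replicate 2, TPM2 was called lower, with a log2FC of -0.33 (adjusted p = 0.00268).

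The log2 ratio of TPM1 to TPM2 counts within a library was -1.42 ± 0.0310 in shCTRL cells and -0.37 ± 0.137 in shCCN3 cells (SD, n = 3 each), a difference of 1.05. Every shCCN3 library had the higher ratio, and an exact permutation test (two-sided) gave p = 0.1, the smallest value that 3 libraries against 3 allow. Over the 6 ratios and shares tested, the adjusted p of this exact test was 0.12. Among the other tropomyosins, TPM4 rose by a log2FC of 0.45 (adjusted p = 0.000426), while TPM3 had one of -0.06 (adjusted p = 0.395). Per kilobase of exon, TPM1 made up 4.64% ± 0.136 of tropomyosin transcripts in shCTRL and 7.72% ± 0.0190 in shCCN3 cells, and TPM2 made up 49.3% ± 2.27 and 39.7% ± 3.97 (SD, n = 3 each). The sum over the 4 tropomyosin genes was 405 ± 12.2 and 435 ± 21.0 CPM per kilobase. These values depend on the exon length used, all annotated exons of a gene together (TPM1 12.88 kb, TPM2 3.25 kb, TPM4 8.63 kb). By CPM in shCTRL cells, TPM4 (1044) was above TPM2 (648). The TPM1 share differed by 3.08 percentage points between the groups, and by 4.91 when counts were not divided by length.

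**Figure D3:**
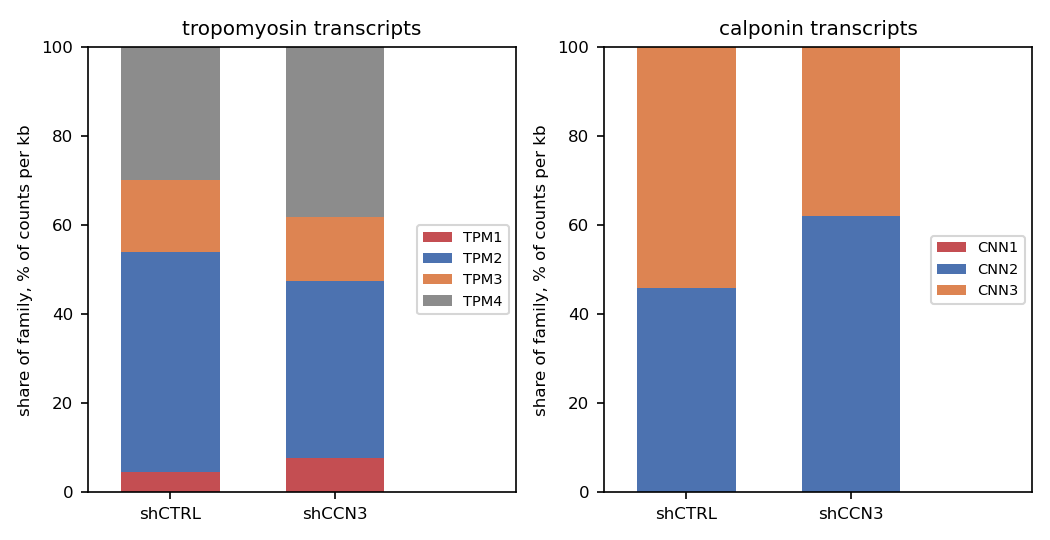
Mean share of each gene in the tropomyosin (left) and calponin (right) transcripts, in percent of counts per kilobase of exon, n = 3 libraries per group. TPM1 and TPM4 take a larger share in shCCN3 cells, and CNN2 moves from 46.0% to 62.0% of calponins.

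TAGLN remained a small part of its family. It made up 0.140% ± 0.0568 of the transcripts per kilobase of TAGLN, TAGLN2 and TAGLN3 in shCTRL cells and 1.87% ± 0.0618 in shCCN3 cells (SD, n = 3 each; exact permutation test, two-sided p = 0.1). TAGLN2, the widely expressed relative, had a log2FC of 0.19 (adjusted p = 0.0941). The ACTA2 and TPM1 shares also gave an exact permutation p of 0.1. A ratio of ACTA2 to ACTG2 is not given as a result, since ACTG2 had no counts in the control libraries. The CNN1 share of calponins had an exact permutation p of 0.4, and a ratio of CNN1 to CNN2 was not computed because CNN1 had 0 counts in 4 libraries.

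Ordered by level per kilobase of exon in shCTRL cells, TPM2 came first at 200 ± 15.4 CPM per kilobase, followed by MYL9 (90.5), CNN2 (49.8), TPM1 (18.8), SRF (9.06), CALD1 (6.53), TAGLN (0.627), ACTA2 (0.239), and ACTG2 and CNN1 at 0. The ranges of neighbours did not overlap in the control libraries, except for ACTG2 and CNN1. In shCCN3 cells MYL9 came first at 191 CPM per kilobase and TPM2 followed at 173, and their ranges overlapped (172 to 212 and 155 to 202). The order below them was the same, down to TAGLN at 9.61, ACTA2 at 1.14, ACTG2 at 0.168 and CNN1 at 0.0317 CPM per kilobase. The classical smooth muscle markers TAGLN, ACTA2, ACTG2 and CNN1 were thus the lowest of the 10 genes in both lines.

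Other genes of the pathway were counted in fixed lists, and the coactivators of SRF come first. MRTFA, an SRF coactivator, rose from 46.6 ± 0.731 to 80.8 ± 2.93 CPM (log2FC 0.79, adjusted p = 1.12e-05). MRTFB had a log2FC of 0.14 (adjusted p = 0.481). MYOCD encodes myocardin, the coactivator of heart and smooth muscle, and was at 0.699, 0.653 and 0.581 CPM in the shCTRL libraries and at 7.65, 5.58 and 6.49 CPM in the shCCN3 libraries. It rose 10.2-fold without overlap (log2FC 3.35, SE 0.170, adjusted p = 1.36e-06). Of the 24 SRF partners and actin regulators, 23 were tested, 7 rose and 3 fell, against 33.4% called in either direction over all genes tested, and the median log2FC was 0.14 against 0.01. The number that rose was 11 without shCCN3 replicate 2. Over all genes tested, 3571 of 17837 rose in that setting, against 2814 of 17419 in the main comparison. LIMK1, a kinase that inactivates cofilin, fell by 1.21 on the log2 scale, and ELK3 and PFN2 fell by 0.50 and 0.52.

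Other targets of MRTF and SRF moved in the same direction as the contractile genes. Of 20 genes on this list, 18 rose, 1 fell and 1 did not pass, against 16.2% higher and 17.3% lower over all genes tested. The median log2FC was 0.54 against 0.01, and the list was chosen with earlier results of these data known. ANKRD1, a muscle ankyrin repeat protein, rose from 0.294 ± 0.109 to 8.27 ± 0.502 CPM (SD, n = 3 each), a log2FC of 4.80 (SE 0.215, adjusted p = 6.76e-07). CCN2 and CCN1, matricellular relatives of CCN3 that YAP/TAZ also control, rose by log2FCs of 3.19 and 1.74. The other 15 risen genes had log2FCs between 0.23 (VASP) and 0.91 (NEXN), among them the focal adhesion and filament genes VCL, FLNA, PDLIM7 and FHL1. ITGA5, the alpha-5 integrin, fell by 0.29 on the log2 scale (adjusted p = 0.00258).

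Of 12 immediate early genes, targets of the TCF branch, 11 were tested, 4 rose and 2 fell, against 16.2% higher and 17.3% lower over all genes tested. The number that rose was 2 with a replicate block in the fit, and also 2 without shCCN3 replicate 1 or 3 or without shCTRL replicate 1 or 2. Over all genes tested, 2044 to 2367 rose in these settings, against 2814 in the main comparison. EGR1 rose 2.46-fold to 4.14 ± 0.299 CPM (adjusted p = 0.000108), IER3 and NR4A1 rose by log2FCs of 0.88 and 0.33, and DUSP5, an ERK phosphatase, fell by 0.65. The other gene that fell, EGR3, was low, at 0.511 CPM in shCTRL and 0.0934 CPM in shCCN3 cells (log2FC -2.46, adjusted p = 0.00327). FOS was at 1.45 CPM in shCTRL and 1.29 CPM in shCCN3 cells (adjusted p = 0.49).

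**Figure D4:**
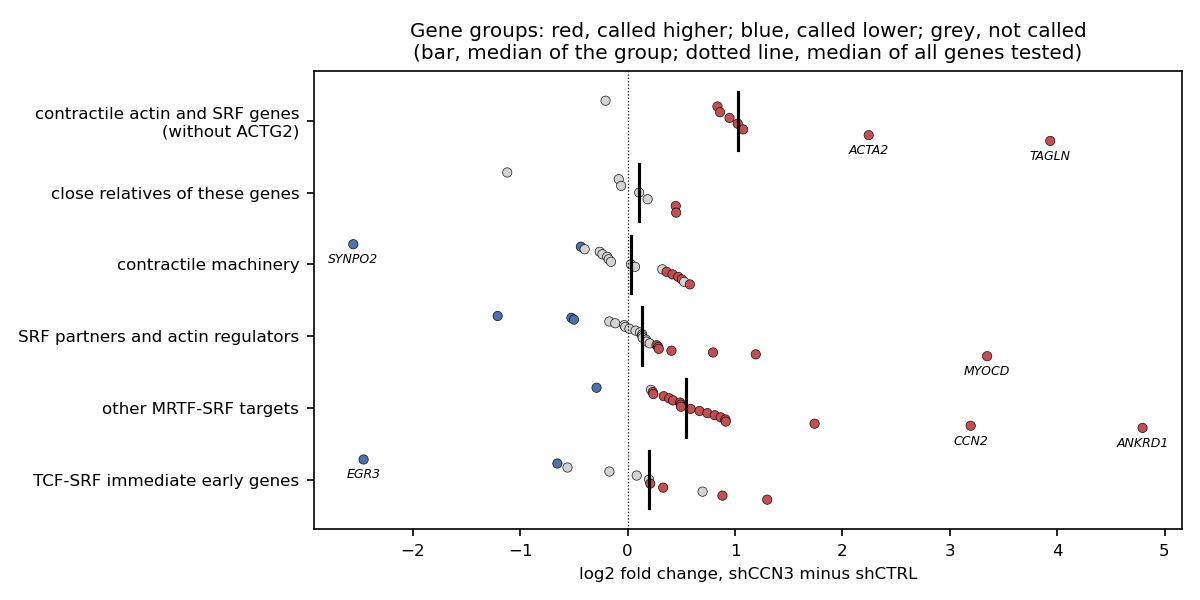
Log2 fold change of every tested gene in the 6 gene groups, 1 point per gene; red points were called higher, blue points lower and grey points not called, black bars are group medians and the dotted line is the median of all genes tested (0.01). ACTG2 has no point because its control libraries are at 0, but it counts in the median of its group (1.02). The contractile and the MRTF-SRF groups lie mostly to the right, with ANKRD1, TAGLN, MYOCD and CCN2 furthest out.

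Of 22 further genes of the contractile machinery, 17 were tested, 5 rose, 2 fell and 10 did not pass, with a median log2FC of 0.03, against 33.4% of all genes tested that were called in either direction. The number that fell was 6 with DESeq2 and 6 without shCCN3 replicate 2. Over all genes tested, 3141 of 17419 and 3658 of 17837 fell in these settings, against 3011 of 17419 in the main comparison. ACTN1, an actin cross-linker, and the myosin heavy chains MYH10 and MYH9 rose by log2FCs of 0.58, 0.50 and 0.47. SYNPO2 (synaptopodin 2), an actin-bundling protein of muscle, fell from 1.89 ± 0.227 to 0.328 ± 0.232 CPM (log2FC -2.56, adjusted p = 0.000931), and SMTN (smoothelin) fell by 0.44 on the log2 scale. MYLK, the kinase that phosphorylates MYL9, was at 234 ± 30.0 and 177 ± 38.4 CPM (adjusted p = 0.0758). Among the 9 close relatives of the contractile genes, 7 were tested, 2 (ACTG1 and TPM4) rose and 0 fell, so that the count called was near the 33.4% of all genes tested. In the RefSeq promoters, 4 of 8 relatives held a CArG box: ACTG1 and TPM4, which rose, ACTA1, which did not pass although its control libraries all lay above the shCCN3 libraries, and ACTC1, which was not tested. A box was found in 1 of 20 promoters of the contractile machinery list (MYLK, which did not pass), in 1 of 21 of the SRF partners, in 2 of 19 of the other MRTF and SRF targets and in 1 of 8 of the immediate early genes (EGR1).

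Markers of differentiated smooth muscle were mostly near the detection limit. Of 7 such genes, 3 were tested, MYOCD rose and SYNPO2 fell, and LMOD1 had a log2FC of 0.53 (adjusted p = 0.654). The smooth muscle myosin MYH11 and desmin (DES) were at 0.0640 and 0.0371 CPM in shCTRL cells and at 0.0613 and 0.0926 CPM in shCCN3 cells. The summed level of the 7 markers was 2.73 to 2.98 CPM in the shCTRL and 6.69 to 8.21 CPM in the shCCN3 libraries, most of it MYOCD in shCCN3 cells. The leukocyte marker CD3E and the endothelial marker CDH5 had 0 CPM in both groups, and 1 of 5 leukocyte markers, CD68, a lysosomal protein, fell by 0.81 on the log2 scale. Of 4 endothelial markers, 1 was tested, PECAM1, with a log2FC of -0.06 (adjusted p = 0.818).

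Of the epithelial and mesenchymal markers, CDH2 (N-cadherin) and KRT18 rose by log2FCs of 0.87 and 0.51, KRT14 rose from 0.161 to 2.11 CPM, and KRT8 fell by 0.52. VIM, ZEB1, FN1 and SPARC did not pass, with log2FCs between -0.14 and 0.18. The hormone receptor gene PGR was at 2.86 CPM and ERBB2 at 77.9 CPM in shCTRL cells, and neither passed an adjusted p of 0.05. The share of these marker changes in the rise of the contractile genes was not tested.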

How the data were processed

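The authors prepared TruSeq stranded mRNA libraries, and the deposited file holds raw read counts per gene for 46427 genes with 1 column per library. Per the labels, the submitters' processing notes name bcl2fastq 2.20.0, Trimmomatic, HISAT2 2.1.0, StringTie 2.1.3d, DESeq2 and GRCh38, with no role given. Annotation and strand setting are not given in the sources used here, so overlapping genes on opposite strands and genes with near-identical copies are uncertain. Columns were assigned to samples by their names.

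TMM-scaled CPM and log2 fold changes were derived from these counts in R 4.3.3 (edgeR 4.0.16), with edgeR's filter on low counts (minimum 10) and the quasi-likelihood test on group alone, adjusted by Benjamini-Hochberg over 17419 genes. Ratios and shares were compared with exact permutation tests, with exon lengths from GENCODE release 29. The length was that of all annotated exons of a gene together, not of a transcript, so levels compared between genes depend on it. Positions and promoters came from RefSeq (GRCh38.p14). Depth was 56159110 to 68393177 counts per library. Replicates of a group differed by more than counting noise (chi-square per degree of freedom 6.75 to 42.5). The highest values were those of shCCN3 replicate 2 against replicates 1 and 3 (34.7 and 42.5). Replicates 1 and 3 of shCCN3 gave 9.28, and the shCTRL pairs gave 6.75 to 20.7.

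Named genes were the 10 members, CCN3, their relatives, MRTFA, MRTFB, MYOCD and, in each other list, up to 3 called genes per direction with the largest change and at least 1 CPM on average. Further genes named for context were chosen after their values were seen. The members and lists were chosen with earlier results of these data known. On simulated counts with 200 genes changed 2-fold among 17112, edgeR recovered 146 with 18 false calls, DESeq2 1.42.0 recovered 148 with 40, and limma-voom (limma 3.58.1) 142 with 17. Alternatives were other size factors, filters and tools, a replicate block and each library left out.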

Additional observations from a re-analysis of the deposited data

How the results depend on the processing

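Under each of the 13 alternatives in normalization, filter, tool, replicate block and left-out library, 7 or 8 of the 10 contractile genes were called higher, 7 where at least 10 counts were required in every library, which removes ACTG2 from the test. The number called lower was 0 to 1 with a library left out, the 1 being TPM2 without shCCN3 replicate 2. With a replicate block, 8 genes were called higher. Whether the numbers pair the samples cannot be told from these few libraries (deviations of same-numbered samples correlated at 0.15, -0.07 and -0.26). Immediate early genes called higher fell from 4 to 2 with the replicate block and to 2 to 3 with a library left out (2 without shCCN3 replicate 1 or 3 or shCTRL replicate 1 or 2), and those called lower from 2 to 1 with at least 10 counts in every library. Contractile machinery genes called lower were 6 with DESeq2 and 2 to 6 with a library left out, 6 without shCCN3 replicate 2. SRF partners called higher were 5 to 11, 11 without shCCN3 replicate 2, and relatives called higher 2 to 4, 4 without shCCN3 replicate 3. Over all genes, 5825 were called in the main comparison and 4181 to 7229 with a library left out, 7229 without shCCN3 replicate 2. The cause of these differences between settings was not tested. With a library left out, the log2 fold change of TAGLN was 3.73 to 4.39, of ACTA2 2.06 to 2.49 and of CCN3 -1.12 to -1.09. Depth limits CNN1 and ACTG2, whose control libraries hold 0 counts.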
